A study of Drosophila melanogaster with 12 samples.

Results

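Among 7186 transcript features measured in early Drosophila embryos, 221 (3.08%) gave a lower signal in immunoprecipitations of both RNA-binding proteins BRAT and PUM than in the control immunoprecipitation. They were chosen on their measured values. A feature was kept when its mean log2 ratios of BRAT RIP over control RIP and of PUM RIP over control RIP both stood for a signal at least 1.5-fold lower, and when all 6 ratios of single replicates were below 0. Both means lay past the threshold for 238 features, and 17 of these were dropped because at least 1 ratio was at or above 0. Since the ratios chose the members, the ratios are given below as a description, and no test of them is read as support.

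PUM belongs to the PUF family of RNA-binding proteins and BRAT to the TRIM-NHL family, and in the fly embryo both repress maternal mRNAs, hunchback being the classic shared target. In an RNA co-immunoprecipitation (RIP), a protein is captured on an antibody along with its bound RNAs, and a control antibody recovers what sticks to the beads and the antibody fragment alone. A transcript that is a smaller part of the RNA recovered with the specific antibody than of that recovered with the control is called depleted here. The term describes the array signal and says nothing of binding.

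The RNA came from extracts of whole w1118 embryos collected 0 to 3 h after egg laying, the same strain and age in every group. Antigen-binding fragments (Fabs), produced in bacteria and carried on beads, served as the anti-BRAT, anti-PUM and control reagents, with 3 biological replicates of each. These 9 RNA preparations fill 12 columns, because the 3 control preparations were normalized once with the BRAT RIPs and once with the PUM RIPs. The copies are not separate replicates, and each pair of BRAT and PUM ratios of 1 replicate number shares 1 control preparation. A high signal in that preparation lowers both ratios. For this reason the paper expected transcripts enriched in the control in both experiments to correlate, and left them out of its correlation. The members are of this kind, and the part of the shared control in their low ratios was not tested. All values are normalized log2 array signals, and equal amounts of labelled cDNA were hybridized, so a ratio compares shares of the recovered RNA and not amounts. The extracts were of whole embryos, so a ratio does not show where in the embryo a transcript lay or how much a cell held.

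Of 17130 features on the array, 7186 had values in all 12 columns and 9944 had none in any. The paper limited its RIP analysis to transcripts it had earlier defined as expressed in embryos of this age. Whether the features without values are those it left out was not tested. Shares of all features refer to the 7186 with values. Replicates of 1 group correlated at r = 0.926 to 0.968 across these features, and column medians ran from 11.59 to 11.65 in the columns normalized with BRAT and from 11.83 to 11.86 in those normalized with PUM. Replicates 1 and 2 of every group were labelled with Cy3 and replicate 3 with Cy5. The features carry FlyBase transcript identifiers. The annotation table used here lists 37 of the 7186 identifiers and 0 of the 221 members, so gene names, functions and sequences of the members, and markers of embryonic cell types, were not analysed here.

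In log2 units the depletion of the members was deeper with BRAT than with PUM, though the BRAT ratios of all features also spread more widely. The median of their mean BRAT ratios was -1.03, a 2.04-fold lower signal, with quartiles of -1.27 and -0.83, against a median of -0.15 over all 7186 features. The median of their mean PUM ratios was -0.72, or 1.65-fold, with quartiles of -0.93 and -0.65, against 0.01 over all features. The quartiles over all features were -0.54 and 0.40 with BRAT and -0.26 and 0.28 with PUM. The same threshold was thus set on unlike spreads. The members' PUM ratios thus lay closer to the threshold than their BRAT ratios. Within 0.1 log2 units of the threshold lay 94 members by their PUM ratio and 18 by their BRAT ratio. A further 108 features would have joined the set but for a PUM ratio up to 0.1 short of it, and 20 but for such a BRAT ratio. The member nearest the BRAT threshold had a mean BRAT ratio of -0.59 and a mean PUM ratio of -0.60, and the nearest feature outside it had -0.58 and -0.60. Nearest the PUM threshold, the member inside had a mean BRAT ratio of -0.99 and a PUM ratio of -0.59, and the feature outside had -1.18 and -0.58. The PUM threshold thus fell in a dense stretch of ratios, and a small shift of the PUM values changes who is counted.

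**Figure D1:**
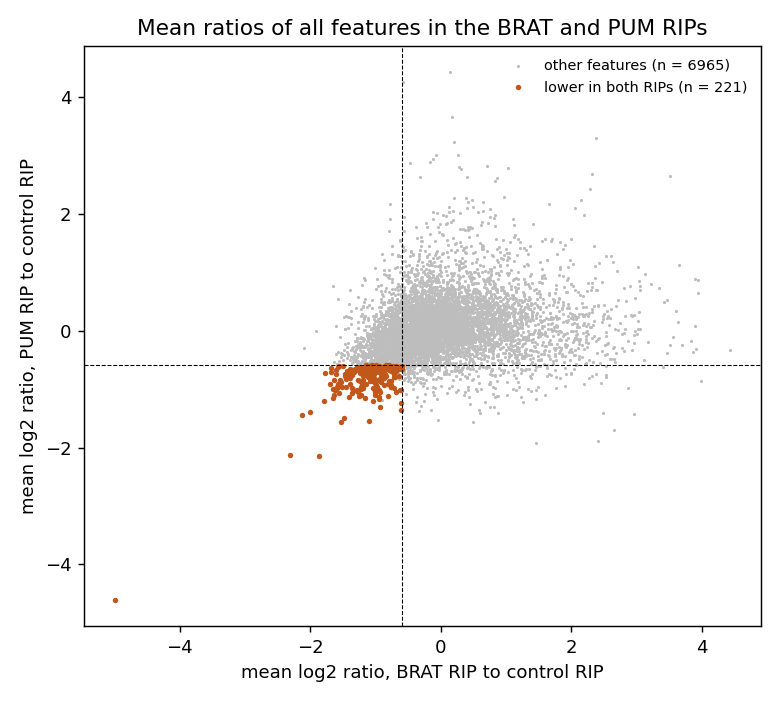
Mean log2 ratio of BRAT RIP over control (x axis) against mean log2 ratio of PUM RIP over control (y axis) for each feature with values, the 221 members set apart from the others and dashed lines at the 1.5-fold threshold on each axis. The members fill the lower left corner, crowd along the PUM threshold, and reach -4.99 with BRAT and -4.61 with PUM in a single feature.

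Few members were depleted strongly from both RIPs. Both mean ratios were at or below -1, a 2-fold lower signal, in 25 members, at or below -1.5 in 4, at or below -2 in 2 and at or below -3 in 1. Taken alone, the BRAT ratio was at or below -1 in 124 members and the PUM ratio in 36. Of the 7186 features with values, 1526 met the same rule with the BRAT ratios and 473 met it with the PUM ratios. The 221 members were 14.5% of the 1526 and 46.7% of the 473. The 2 shares have unequal bases, since lower signals were more common in the BRAT RIP. BRAT and PUM ratios also share their control preparations and are not independent, so nothing is read from this overlap.

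The member with the lowest ratios was FBtr0073224, whose signal was below the members' median in both RIPs and above it in the controls. In the BRAT RIP its log2 signals were 8.22, 9.27 and 9.04 in replicates 1 to 3 (mean 8.84 ± 0.55, SD, n = 3), against 15.40, 13.07 and 13.03 in the controls normalized with them (13.84 ± 1.35). In the PUM RIP they were 9.27, 9.32 and 9.38 (9.33 ± 0.06), against 15.15, 13.27 and 13.38 in the controls (13.93 ± 1.05). All 6 RIP signals were more than 3 log2 units below every control signal, and the control of replicate 1 stood above the other two. The mean ratio was -4.99 with BRAT (SE 0.57, 31.8-fold, limma adjusted p = 0.000423) and -4.61 with PUM (SE 0.37, 24.4-fold, limma adjusted p = 0.000978). Replicate 1 carried the lowest ratio in both RIPs, -7.18 with BRAT and -5.88 with PUM. Without it the ratios were -3.90 and -3.97. With a trended and robust variance prior the BRAT ratio had a limma adjusted p of 0.0627.

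The second was FBtr0078472, with ratios of -2.26, -2.75 and -1.91 with BRAT and -2.22, -2.32 and -1.82 with PUM in replicates 1 to 3. Its BRAT RIP signals were 10.76, 10.95 and 10.82 (10.84 ± 0.10, SD, n = 3) against control signals of 13.01, 13.69 and 12.73 (13.15 ± 0.49). Its PUM RIP signals were 10.96, 11.48 and 11.07 (11.17 ± 0.28) against 13.18, 13.80 and 12.89 (13.29 ± 0.47). No RIP signal reached any control signal. The mean ratio was -2.30 with BRAT (SE 0.20, 4.94-fold, limma adjusted p = 0.000134) and -2.12 with PUM (SE 0.18, 4.34-fold, limma adjusted p = 0.00119). Next in order came a member with -1.86 and -2.14. For neither of the 2 named members did the BRAT and PUM ratios differ past the threshold, by -0.39 (SE 0.28, limma adjusted p = 0.284) for FBtr0073224 and by -0.19 (SE 0.19, limma adjusted p = 0.458) for FBtr0078472. These p-values do not show that the ratios were equal.

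**Figure D2:**
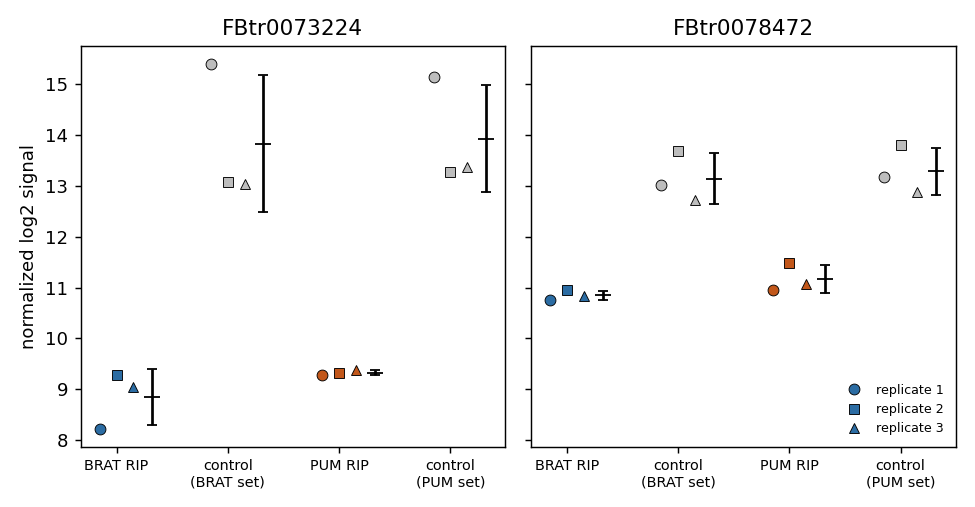
Normalized log2 signal (y axis) of FBtr0073224 and FBtr0078472 in each of the 3 replicates of the 4 groups of columns, with the mean ± SD. The RIP columns of FBtr0073224 lie between 8.22 and 9.38 and its control columns between 13.03 and 15.40, and those of FBtr0078472 lie between 10.76 and 11.48 against 12.73 to 13.80.

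Over all members, the ratios of single replicates were similar, with replicate 1 somewhat lower. The members' median BRAT ratio was -1.12 in replicate 1, -0.98 in replicate 2 and -1.06 in replicate 3, against -0.17, -0.09 and -0.12 over all features. Their median PUM ratio was -0.83, -0.73 and -0.73, against -0.01, 0.04 and 0.00. In log2 units, the members' medians lay farther below those of all features with BRAT than with PUM in each replicate. The lowest of the 3 PUM ratios was that of replicate 1 in 100 members, of replicate 2 in 54 and of replicate 3 in 67, where over all features the shares were 36.9%, 27.0% and 36.2%. With BRAT these counts were 89, 47 and 85, and the shares over all features 38.5%, 28.1% and 33.5%. Replicate 2 least often gave the lowest ratio, among the members and over all features. The median SD of a member's 3 ratios was 0.267 with BRAT and 0.263 with PUM, near the 0.280 and 0.290 of all features.

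**Figure D3:**
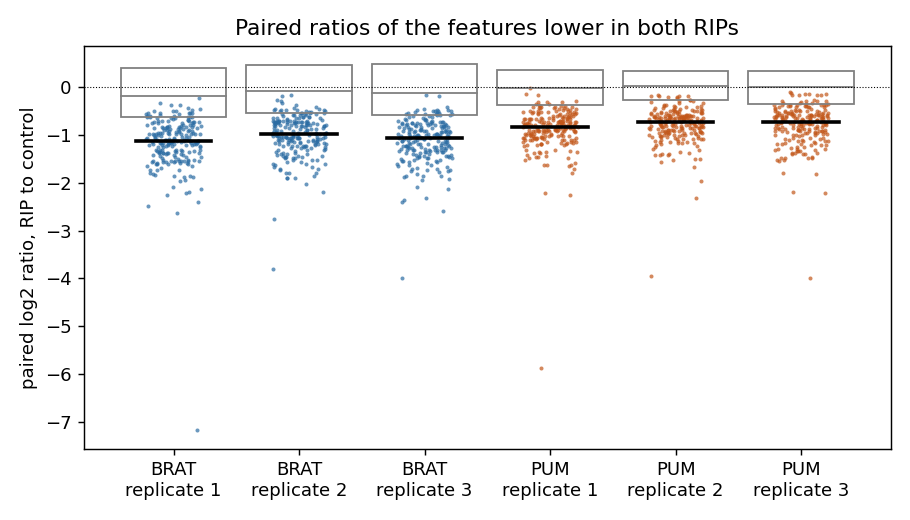
Log2 ratio of RIP over control (y axis) of each of the 221 members in replicates 1 to 3 of BRAT and PUM, with black bars at the members' medians and grey boxes for the quartiles and median of all 7186 features. The members' medians run from -1.12 to -0.98 with BRAT and from -0.83 to -0.73 with PUM, and every point is below 0 by the rule.

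A low ratio can come with a high control signal, a low RIP signal or both, and the members as a group showed both with BRAT. In the PUM RIP the members' median was below that of all features in replicate 1 (11.44 against 11.86) and replicate 2 (11.77 against 11.86). In replicate 3 it was not (11.84 against 11.83). In the controls normalized with BRAT, the members' median log2 signal was 12.28 (7.72 to 15.42), against 11.64 over all features. In the BRAT RIP it was 11.19 (6.91 to 14.56), against 11.58. With PUM it was 12.48 in the controls against 11.84 over all features, and 11.64 in the RIP against 11.86. By column, the members' median lay at the 62.3 to 70.1 percentile of all features in the controls, at the 37.9 to 44.0 percentile in the BRAT RIP and at the 39.9 to 50.3 percentile in the PUM RIP. The distance from the median of all features was larger in the control than in the RIP for each replicate of PUM and for replicates 2 and 3 of BRAT, and for replicate 1 of BRAT it was larger in the RIP (-0.58 against 0.54). The members' middle was thus high among the control signals and near or somewhat below the middle of the specific RIPs. Signals of different features also depend on their probes, so these positions are not amounts of RNA, and the control signal is part of the ratio that chose the members.

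When all features were ordered by their control signal, 156 members (70.6%) lay above the median, 37 (16.7%) in the top 10% and 3 in the lowest 10%. A comparison set with less or no depletion from the PUM RIP also lay mostly above the median. Of the 1240 features that met the rule with BRAT and had a mean PUM ratio within 1.5-fold of the control, 66.6% lay above the median of the control signal and 20% in the top 10%, and their median control signal was 12.29. Their median BRAT ratio was -0.80 and their median PUM ratio -0.18. The control signals of the members and of these features thus had nearly the same middle.

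**Figure D4:**
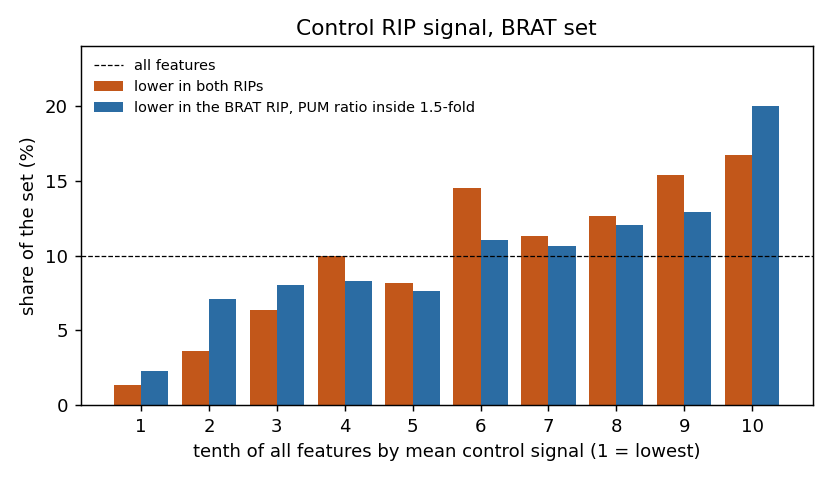
Share in percent (y axis) of the 221 members and of the 1240 features lower in the BRAT RIP with a PUM ratio inside 1.5-fold that fell in each of 10 equal bins of the mean control signal of all 7186 features (x axis, low to high), with a line at the 10% of all features that each bin holds. The highest bin holds 16.7% of the members and 20% of the comparison features.

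Among the 3 control preparations, that of replicate 3 most often gave the members their highest signal. It was the highest in 116 members (52.5%) in the columns normalized with BRAT and in 112 (50.7%) in those normalized with PUM, against 34.9% and 35.1% of all features. Replicate 1 was the highest in 44 members (19.9%) and 42 (19.0%), where over all features it was so in 41.0% and 41.1%. Replicate 3 is also the only number labelled with Cy5, in every group, so the part of the dye in these levels cannot be told apart from that of the replicate. Both columns show the same preparations, whose copies correlated at r = 0.991 to 0.993 over the members. In the columns normalized with BRAT, the members' control values varied less between replicates than those of all features (median SD 0.245 against 0.286). Their BRAT RIP values varied slightly more (0.294 against 0.268). For the 1240 comparison features these medians were 0.254 and 0.282, in both cases between the members and all features.

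To read the ratios in a replicate that had no part in the choice, the rule was applied to 2 replicate numbers at a time and the ratios were read in the number left out, a step chosen after seeing the data. With replicate 1 left out, 226 features were chosen, 166 of them members, and in replicate 1 their median ratio was -1.02 with BRAT and -0.65 with PUM. With replicate 2 left out, 302 were chosen, 197 of them members, with medians of -0.80 and -0.60 in replicate 2. With replicate 3 left out, 290 were chosen, 177 of them members, with medians of -0.94 and -0.48 in replicate 3. The medians in the replicate left out were in each case closer to 0 than in the replicates that made the choice, where they were -1.04, -1.02 and -1.01 with BRAT and -0.77, -0.73 and -0.74 with PUM. The difference was largest with PUM in replicate 3 and smallest with BRAT in replicate 1.

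Most features chosen in this way were again below the control in both RIPs. Both ratios of the replicate left out were below 0 in 88.9%, 85.8% and 86.9% of them for replicates 1, 2 and 3, against 36.1%, 31.5% and 32.1% of all features. Fewer met the 1.5-fold threshold again in both RIPs, 119 of 226 (52.7%), 128 of 302 (42.4%) and 103 of 290 (35.5%), against 7.40%, 3.88% and 5.07% of all features. The BRAT and PUM ratios read in 1 replicate divide by the same control preparation, so they are not independent readings of each other.

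**Figure D5:**
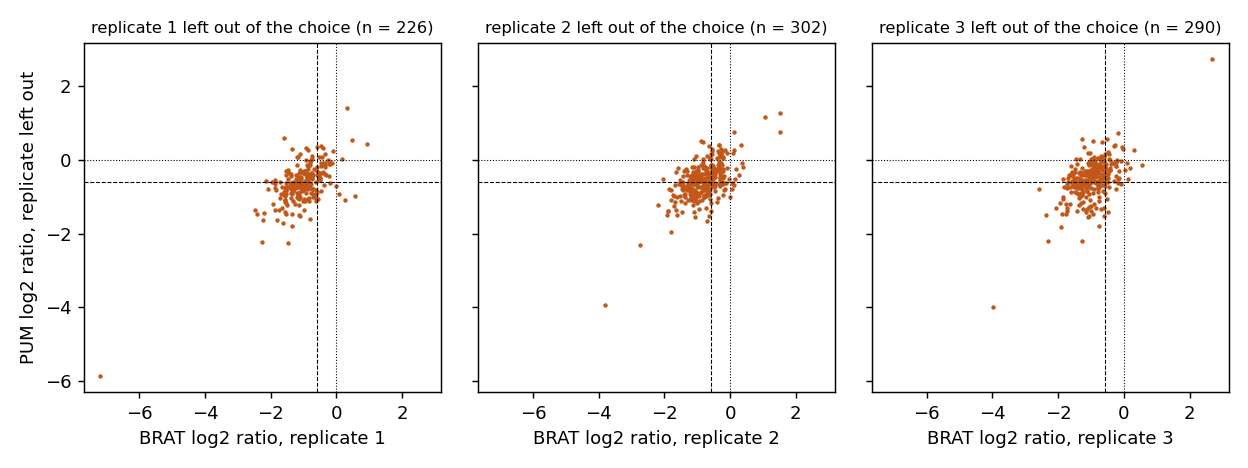
Log2 ratio of BRAT RIP over control (x axis) against log2 ratio of PUM RIP over control (y axis) in the replicate left out, for the 226, 302 and 290 features chosen on the other two replicates, with dotted lines at 0 and dashed lines at the 1.5-fold threshold. Between 85.8% and 88.9% of the points lie below 0 on both axes, and between 35.5% and 52.7% lie past both dashed lines.

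The paired limma fit over all 7186 features gives the error of each ratio and the share of features it calls, at an adjusted p under 0.05 and at least a 1.5-fold lower signal. It used the contrasts that chose the members, so nothing is read from these counts. All 221 members were called lower with BRAT, where 21.1% of all features were, and 124 (56.1%) were called lower with PUM, where 3.58% of all features were. The fit called 124 members lower in both, where 1.75% of all features were so called, and the other 97 members (43.9%) missed the call with PUM. The median SE of a member was 0.177 log2 units with BRAT (0.159 to 0.569) and 0.179 with PUM (0.160 to 0.366). The errors were thus near equal for the RIPs, while the limma adjusted p with PUM had a median of 0.0459 and ran up to 0.145. The PUM count moved strongly with the setting. Without replicates 1, 2 and 3 in turn it was 9, 57 and 72, where 13, 151 and 147 of all features were called. It was 29 without the replicate block, where 66 of all features were called. It was 202 with a trended and robust variance prior, of 408 features called, and 197 of the 204 members kept when low control signals were left out, of 398 features called. All 3 BRAT RIP signals lay below all 3 control signals in 203 members (91.9%), where 25.9% of all features did so, and all 3 PUM RIP signals did in 178 (80.5%), where 11.6% did.

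The extent of depletion was compared between the RIPs by the difference of the ratios within each replicate number. The mean BRAT ratio was below the mean PUM ratio in 187 members and above it in 34, and 61.3% of all features had the lower BRAT ratio. The members' median difference was -0.27 log2 units, with quartiles of -0.49 and -0.08, and over all features it was -0.18. The BRAT ratio was the lower in all 3 replicates in 96 members and the PUM ratio in 9. This was not counted over all features, so nothing is read from these 2 counts. By limma, 41 members (18.6%) were called lower with BRAT than with PUM by at least 1.5-fold, where 22.2% of all features were, and 2 (0.905%) were called lower with PUM, where 17.2% were. The rule bounds both counts, since each ratio of a member has to pass the threshold and a called member needs a lower one still in the other RIP, so nothing is read from these shares. With each ratio centred on its median over all features, which moves the median BRAT ratio from -0.15 to -0.02, the counts were 12 and 3 members, where 1077 and 1482 of the 7186 features were called. Without the replicate block they were 10 and 1 members, where 943 and 945 features were called.

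The members at the ends of this range were picked by the difference itself, so their unlike profiles and limma p-values are a description only. The member with the lowest difference had BRAT RIP signals of 9.24, 7.81 and 8.11 against controls of 10.11, 9.84 and 10.51, and PUM RIP signals of 10.14, 9.81 and 9.53 against controls of 10.70, 10.31 and 10.65. It was depleted by -1.77 with BRAT and by -0.73 with PUM, a difference of -1.04 (SE 0.25, limma adjusted p = 0.00827). The member with the highest difference had BRAT RIP signals of 11.80, 12.56 and 12.64 against controls of 12.36, 13.21 and 13.25, and PUM RIP signals of 11.39, 11.87 and 11.83 against controls of 12.44, 13.39 and 13.34. Its ratios were -0.61 with BRAT and -1.36 with PUM, a difference of 0.76 (SE 0.19, limma adjusted p = 0.0119). The first was a feature of low control signal whose BRAT ratio was less deep in replicate 1 than in the other two, and the second had a high control signal and even BRAT ratios.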

How the data were processed

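RNA from anti-BRAT, anti-PUM and control RIPs was hybridized to custom NimbleGen arrays. The authors extracted signals with NimbleScan and normalized them by RMA (quantile method) in ArrayStar, separately for the BRAT and PUM sets, each with its 3 controls, and deposited the normalized values, read here as log2 from their range. No genome coordinates were used. Arrays shared by samples are not given, scanner files were not used here, and so background and saturation were not assessed. The number of replicates limits the precision.

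Ratios were RIP minus control of the same set and replicate number. The members, the gene lists and the tests were chosen with earlier results of these data known. The gene lists, the motif counts and the markers planned for the members were not used, because no table paired the members with genes. The text names the 2 members with the lowest mean of both ratios, the rule set for unnamed identifiers; other members are given without a name, chosen after their values were seen.

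limma 3.58.1 in R 4.3.3 (lmFit, eBayes) was fitted to all 7186 features, two-sided, with the replicate number as a block and Benjamini-Hochberg adjustment. Features at an adjusted p under 0.05 and at least 1.5-fold were called. The study's methods also paired the samples. The pairing was checked by the correlation of same-numbered samples' deviations from their group means, which for replicates 1, 2 and 3 was 0.532, 0.297 and 0.457 among the BRAT columns. Among the PUM columns it was 0.505, 0.322 and 0.356. Replicate 3 alone was labelled with Cy5 in every group, which would also make same-numbered deviations correlate. The check therefore cannot tell a shared origin of the samples from a shared dye. Alternatives were no block, another variance prior, centring, cyclic loess, joint quantile normalization, a 2-fold threshold, a filter on low control signals and leaving out each replicate. Descriptions and plots used Python 3.11.15, numpy 2.4.6 and matplotlib 3.10.9.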

Additional observations from a re-analysis of the deposited data

Results flagged for a closer look

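The limma test of the difference between the ratios called 41 members (18.6%) lower with BRAT than with PUM, where 22.2% of all features were. It called 2 members (0.905%) lower with PUM than with BRAT, where 17.2% of all features were. Calls needed an adjusted p under 0.05 and at least 1.5-fold. At an unadjusted p under 0.05, 65 members (29.4%) differed in either direction, where 3672 of all features (51.1%) did. Both ratios chose the members, so the counts describe them.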

How the results depend on the processing

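With 3 replicates a group, no alternative turned the sign of a ratio of the 2 named members, but nothing is read from this. The rule already required every single-replicate ratio of a member to be negative. Leaving out a replicate, dropping the block or changing the variance prior therefore could not turn a sign. The 2 named members were also picked for the lowest ratios, far from a change of sign. The set of 221 held 207 features with centred ratios, 212 after cyclic loess and 316 after joint quantile normalization, each sharing 197 with the members, 204 with the lowest 25% of control signals left out, 238 with no condition on single replicates, 226 to 302 without 1 replicate, 25 at 2-fold and 126 by limma calls in both RIPs, 124 of them members. At 2-fold the calls among members were 124 with BRAT (379 over all features), 35 with PUM (77) and 2 lower with BRAT than with PUM (514).

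In the sentences that follow, the count over all features called stands in parentheses after the members' count. Without the replicate block, 29 members (66) were called lower with PUM, 180 (931) with BRAT, 10 (943) lower with BRAT than with PUM and 1 (945) the reverse. Leaving out 1 replicate gave 9 to 72 calls (13 to 151) with PUM, 203 to 208 (1331 to 1439) with BRAT, 20 to 30 (1215 to 1509) lower with BRAT than with PUM and 0 to 2 (1098 to 1191) the reverse. The PUM calls were 202 (408) with a trended and robust prior and 197 of the 204 members kept (398) with low control signals left out. The calls lower with BRAT than with PUM were 12 (1077) after centring, 19 (1283) after cyclic loess and 22 (1496) after joint quantile normalization. In the reverse direction, limma called 0 members (762) at 2-fold and 0 (1098) without replicate 2. At an unadjusted limma p under 0.05 the members' counts were 0 and 1. All features were not counted at that level, so nothing is read from these. No other tool was run. The causes of these shifts were not tested.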

Other observations

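Both ratios of a replicate share a control preparation. To read them apart, features were chosen on 1 RIP in 2 replicate numbers and read in the other RIP in the number left out, whose control preparation took no part in the choice, a step chosen after seeing the data. Features lower in the BRAT RIP (1583, 1706 and 1601) had median PUM ratios of -0.22, -0.17 and -0.11 in replicates 1, 2 and 3 left out, and 24.4%, 16.4% and 15.2% of them were past the 1.5-fold threshold with PUM, against 13.9%, 8.17% and 13.2% of all features. Features lower in the PUM RIP (547, 653 and 561) had median BRAT ratios of -0.29, -0.30 and -0.56, and 38.4%, 34.9% and 48.3% of them were past the threshold with BRAT, against 26.7%, 22.1% and 25.0% of all features. The chosen features lay below the median of all features in each of these 6 readings, by less than the members do in the replicates that chose them.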
